A study of Mus musculus with 12 samples.

Results

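The genes of the cytosolic ribosome that are named Rpl, Rplp or Rps were followed through hippocampal RNA of presenilin conditional double knockout mice and wild type mice taken at night or by day. A gene belonged to the set when its symbol was Rpl, Rps or Rplp followed by a number and at most 1 of the letters a, l or x. Of the 21878 genes in each library's table, 80 had such a symbol, and 77 of them reached 0.5 FPKM in at least 3 of the 12 libraries: 47 genes of the large subunit and 30 of the small subunit. FPKM is a count of fragments divided by transcript length and sequencing depth, so it can be set side by side between genes. The 3 genes not kept were Rpl10l, listed at 0 in all libraries, Rpl39l at no more than 0.176 FPKM and Rpl3l at no more than 0.0623 FPKM. All 3 are known as copies of Rpl10, Rpl39 and Rpl3 used mainly in testis or striated muscle.

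The 4 groups had 3 libraries each. They were double knockout mice at night (Night DKO), wild type mice at night (Night WT), double knockout mice by day (Day DKO) and wild type mice by day (Day WT). The series text gives 9 p.m. and 9 a.m. as the hours of killing, under sodium pentobarbital anaesthesia, and hippocampus as the tissue, where the sample labels say brain. The Cre line, strain, age and sex of the mice are not stated, nor is it stated whether each library comes from its own mouse. The p-values therefore speak of the spread between libraries, which may be technical. The question named by the series title is how gene expression differs with the presenilin knockout and with the time of day.

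Each cytosolic ribosome holds 1 copy of nearly every ribosomal protein, and cells make the proteins in balance. Their mRNAs are among the most abundant in any cell and begin with a run of pyrimidines, the terminal oligopyrimidine tract, through which mTORC1 signalling and the RNA-binding protein LARP1 control their translation. In neurons, ribosomes also sit in dendrites and near synapses, where local translation is part of lasting synaptic change.

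Summed over all genes, a library held between 151059 and 175692 FPKM, and its number of reads is unknown. Median-of-ratios scale factors, computed over 12653 genes, were 1.00 to 1.03 in Night DKO, 0.998 to 1.05 in Night WT, 0.982 to 1.01 in Day DKO and 0.941 to 0.977 in Day WT. Values as deposited therefore stood slightly higher at night across all genes, and each comparison is given both as deposited and after this scaling. Psen2, a target of the knockout, was between 0.275 and 0.594 FPKM in the 6 DKO libraries and between 1.47 and 3.64 FPKM in the 6 WT libraries. Night WT replicate 1 had almost no RNA of 4 Y-linked genes, 0.0308 FPKM in sum against 14.1 to 18.1 FPKM in the other 11 libraries, so it differed in sex from them.

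Ribosomal protein mRNAs were abundant in every library. The median over the 77 genes of the mean level was 145 FPKM, against 4.50 FPKM over the 12689 genes tested, and 48 of the 77 stood at 100 FPKM or more, as did 215 of all genes tested. The large subunit genes had a median of 133 FPKM and the small subunit genes one of 149.7 FPKM. The highest were Rps29 at 1330.2, Rps27 at 920 and Rpl41 at 886 FPKM, all short mRNAs of small proteins. Rps23, a protein of the decoding site, stood at 506 FPKM, and Rplp1, 1 of the acidic proteins of the stalk that recruits elongation factors, at 438 FPKM. At the low end were Rpl32l at 0.542, Rps27l at 2.01, Rps20 at 13.99, Rps24 at 14.5 and Rpl22 at 16.3 FPKM, although ribosomes hold Rps20 and Rps24 in the same number as other proteins. The low level of Rps20 went with a matched transcript of 3706 bases, where the median over the members was 776 bases, so its level depends on the length the authors used. Rps24 was matched to 525 bases.

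Together the 77 genes made up 8.66% ± 0.190 of the summed FPKM in Night DKO, 9.08% ± 0.0699 in Night WT, 8.46% ± 0.249 in Day DKO and 8.66% ± 0.103 in Day WT (SD, n = 3 each). The lowest of the 3 Night WT libraries, at 9.02%, stood above the highest of all other libraries, at 8.85%. To follow the set without its few most abundant genes, each gene was centred on its mean log2(FPKM + 1) over the 12 libraries, and the median over the 77 genes was taken in each library. As deposited, that median was 0.07, 0.00 and 0.01 in Night DKO, 0.10, 0.18 and 0.09 in Night WT, -0.17, 0.01 and -0.03 in Day DKO and -0.15, -0.03 and -0.07 in Day WT. The 3 Night WT libraries were the highest of the 12, and Day DKO replicate 1 was the lowest. After median-of-ratios scaling it was 0.02, 0.00 and -0.01 in Night DKO, 0.07, 0.11 and 0.09 in Night WT, -0.15, 0.00 and -0.03 in Day DKO and -0.06, 0.01 and -0.03 in Day WT. Night WT again held the 3 highest libraries, while 2 of the 3 Night DKO libraries lay within the range of the day libraries. The pooled SD of this median between libraries of 1 group was 0.06 as deposited and 0.04 after scaling. In bulk tissue, more cells with many ribosomes and more of these mRNAs per cell cannot be told apart.

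**Figure D1:**
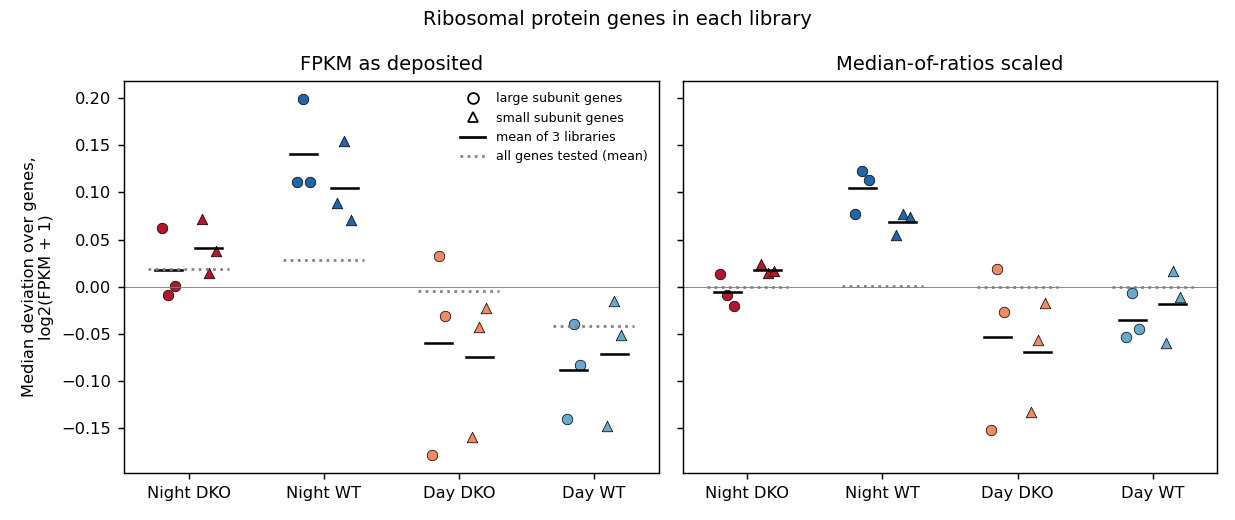
Median deviation of large subunit genes (circles, n = 47) and small subunit genes (triangles, n = 30) from each gene's mean, on the log2(FPKM + 1) scale, in each of 12 libraries, as deposited (left) and after median-of-ratios scaling (right). Black bars are means of 3 libraries and dotted lines the mean over libraries of the median of all genes tested; Night WT stands above the other groups in both panels, and large and small subunit genes move together.

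Large and small subunit genes stayed close to each other in every library. The median of the large subunit genes minus that of the small subunit genes was between -0.04 and -0.01 in Night DKO, 0.02 and 0.05 in Night WT, -0.02 and 0.08 in Day DKO and -0.03 and 0.01 in Day WT, on the log2(FPKM + 1) scale. Night WT had the large subunit on top in all 3 libraries and Night DKO the small subunit in all 3. These gaps were small beside the range of the members' median itself, -0.17 to 0.18, and no test was made on them. The members moved together: the correlation of a gene with the median of the other 76 over the 12 libraries had a median of 0.79, with 69 of 77 above 0.5, as deposited. After scaling the median was 0.67, with 54 above 0.5. Those correlations share libraries and scale, and are given as a description.

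Between night and day, averaged over both genotypes, 17 of the 77 genes rose and none fell (limma, adjusted p under 0.05 over all 12689 genes; differences are in log2(FPKM + 1)). That is 22.1% of the members, against 5.19% of all genes tested called higher and 0.875% called lower. Of the 17, 11 belonged to the large subunit and 6 to the small subunit. The median difference of the 77 genes was 0.14, against 0.05 over all genes tested, and 76 of 77 were above 0, as were 69.4% of all genes. Before adjustment, 43 members were higher and 0 lower at p under 0.05, against 21.7% and 4.48% of all genes. After median-of-ratios scaling 7 genes rose and none fell, against 1.63% of all genes called higher and 2.22% called lower, and the median difference was 0.08 against 0.00. Among the 7 were Rpl10a, Rpl12, Rpl14, Rpl24, Rps27a and Rps4x.

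The count rested on the libraries used. It was 6 without Day DKO replicate 1, Night DKO replicate 1, Night DKO replicate 3 or Night WT replicate 2, and 7 without Day WT replicate 1 or Night WT replicate 3. It was 9 without Night WT replicate 1, the library that differed in sex, and 10 without Night DKO replicate 2. The share of all genes called in the leave-one-out fits was not counted, so these counts have no background beside them. In all 21 alternative settings run 5 genes were called, among them Rpl10a, Rpl12, Rps27a and Rps4x, while Rpl14 was called in 19 and the remaining 11 genes in 5 to 11 of them.

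Rps4x, an X-linked protein of the small subunit (gene ID 20102, chrX:102184941-102189391 in GRCm38.p6), was at 115, 114 and 119 FPKM in Night DKO and 140.1, 131 and 132 in Night WT, against 95.9, 96.9 and 106 in Day DKO and 103, 106 and 109 in Day WT. Every night library was above every day library. The difference was 0.28 (standard error 0.042, limma adjusted p = 0.0049) as deposited and 0.22 (adjusted p = 0.0119) after scaling. The highest of its values was in Night WT replicate 1, and it was called without that library too.

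Rpl12 sits at the base of the stalk on which elongation factors dock (gene ID 269261, chr2:32961712-32964045). It was at 109, 124 and 128 FPKM in Night DKO and 143, 151 and 137 in Night WT, against 105, 107 and 105 in Day DKO and 108, 108 and 109.7 in Day WT. The night values of WT stood clear of all others, and the lowest Night DKO library overlapped the day range. The difference was 0.29 (standard error 0.045, limma adjusted p = 0.0062) as deposited and 0.24 (adjusted p = 0.0145) after scaling.

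Rps27a encodes ubiquitin joined to a small subunit protein (gene ID 78294, chr11:29545842-29548040). It was at 139.6, 126 and 139 FPKM in Night DKO and 144, 144 and 139 in Night WT, against 104, 113 and 124 in Day DKO and 114, 107 and 113 in Day WT. Every night library was above every day library. The difference was 0.30 (standard error 0.049, limma adjusted p = 0.0079) as deposited and 0.24 (adjusted p = 0.0152) after scaling. Rpl10a, a protein of the mobile stalk beside the exit site (gene ID 19896, chr17:28328471-28331033), was at 34.3, 38.4 and 34.7 FPKM in Night DKO and 36.6, 37.9 and 35.7 in Night WT, against 27.0, 30.9 and 28.6 in Day DKO and 28.0, 34.4 and 29.8 in Day WT. Day WT replicate 2 reached the lower night values in Rpl10a, and the other 5 day libraries did not. Its difference was 0.28 (standard error 0.055, limma adjusted p = 0.0176) as deposited and 0.22 (adjusted p = 0.0327) after scaling.

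**Figure D2:**
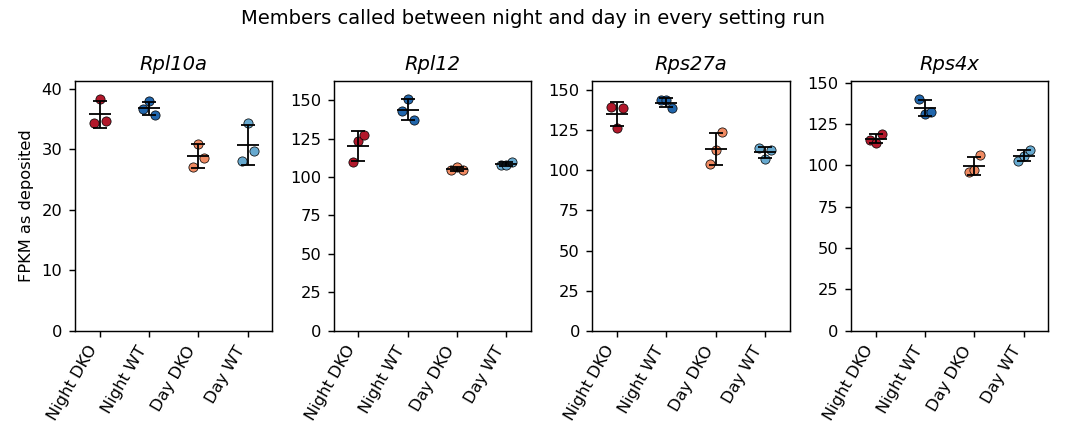
FPKM as deposited of Rpl10a, Rpl12, Rps27a and Rps4x, which were called between night and day in all 21 alternative settings, with 1 point per library, the mean as a bar and the SD as whiskers (n = 3 per group). Night DKO and Night WT stand to the left of Day DKO and Day WT; Rpl12 and Rps4x are higher in Night WT than in Night DKO.

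The other 12 genes called as deposited differed by 0.17 to 0.28, and 10 of them were not called after scaling. Rpl24, which forms a bridge between the subunits, differed by 0.25, and Rpl3, near the peptidyl transferase centre, by 0.21. Rpl14 differed by 0.22 and stood at 91.1 ± 3.88 FPKM in Night DKO and 99.4 ± 4.63 in Night WT, against 80.1 ± 4.56 in Day DKO and 82.5 ± 2.40 in Day WT (SD, n = 3). Among small subunit genes, Rps10 and Rps20, which are ubiquitinated when ribosomes collide, differed by 0.17 and 0.25. Rps7 differed by 0.21. Rpl28 and Rpl36 differed by 0.28 each, Rpl17, which lines the exit tunnel, by 0.22, Rpl21 by 0.19 and Rplp1 by 0.19. All of these adjusted p-values lay between 0.0169 and 0.0421 as deposited (limma). Of the genes that did not pass, Rpl37a, at 0.02, and Rps24, at 0.04, were the closest to no difference, and Rps16 alone was below 0, at -0.10.

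Pyrimidine runs at the start of these genes were read from RefSeq promoter records on GRCm38.p6, which held 57 of the 77 members. A run of at least 8 C or T within 30 bases before to 20 bases after the annotated start was present in 31 of 57 members, 54.4%, against 23.6% of 10082 other genes tested. Counted per record, 33 of the members' 68 records held one, 48.5%, against 20.2% of the 32851 in the table. Among the members, 4 of 8 called between night and day and 27 of 49 not called held such a run, 50% and 55.1%. The following 50-base windows belong to called genes that have 1 record each, and they are shown because they range from a long run to almost none. Each is written in transcript sense, 5′ to 3′, with the longest unbroken run of C or T in capitals.
Rpl14: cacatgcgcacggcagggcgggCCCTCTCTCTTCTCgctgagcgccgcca
Rps10: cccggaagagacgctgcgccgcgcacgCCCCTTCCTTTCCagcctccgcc
Rpl28: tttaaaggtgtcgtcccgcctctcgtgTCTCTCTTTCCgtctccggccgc
Rps7: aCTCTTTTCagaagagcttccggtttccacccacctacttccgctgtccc
Rpl12: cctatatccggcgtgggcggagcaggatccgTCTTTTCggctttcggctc
Rps4x: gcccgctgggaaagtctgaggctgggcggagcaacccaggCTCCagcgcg
Rpl24: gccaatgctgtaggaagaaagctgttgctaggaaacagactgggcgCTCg

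The windows lie at chr9:120571487-120571536 on the plus strand for Rpl14, chr17:27635225-27635274 on the minus strand for Rps10 and chr7:4792935-4792984 on the plus strand for Rpl28. Those of Rps7, at chr12:28635934-28635983, and Rps4x, at chrX:102189372-102189421, are on the minus strand, and those of Rpl12, at chr2:32961682-32961731, and Rpl24, at chr16:55966245-55966294, on the plus strand. In Rpl14, Rps10 and Rpl28 a run of 14, 13 and 11 pyrimidines began 8, 3 and 3 bases before the annotated start and so spanned it. In Rpl12 a run of 7 began 1 base after the start. In Rps4x and Rpl24, runs of 4 and 3 lay further inside the transcript, and in Rps7 the run of 8 began 29 bases before the start. Over the 300-base records, from 250 bases before to 50 after the start and on both strands, CGGAAGT, the core bound by ETS factors, was in 20 of 57 members, 35.1%, against 14.1% of other genes tested, and in 30.9% of the members' records, against 6.42% of all records. AANATGGC, the core bound by YY1, was in 19.3% of members against 9.68% of other genes, and in 22.1% of the members' records against 6.05% of all. TATAAA was in 12.3% of members against 8.83% of other genes, and in 10.3% of the members' records against 13.6% of all. The 3 motifs were searched separately, so their matches may overlap on the sequence, and a match describes letters, not binding.

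By genotype, the night difference passed the test in WT mice alone, and the difference between genotypes is given by the interaction further on. In WT mice 5 of 77 genes rose and none fell, 6.49% of the members against 1.51% of all genes called higher and 0.158% called lower (limma). Among them were Rpl12 at 0.40, Rps27a at 0.35, Rps4x at 0.34 and Rpl22 at 0.29, with adjusted p-values of 0.0244, 0.0384, 0.0301 and 0.039. Before adjustment, 55 members were higher at p under 0.05 and 1, Rps16, was lower, against 19.8% and 2.45% of all genes. In 55 genes every Night WT library was above every Day WT library, against 24.3% of all genes, and in Rps16 every Night WT library was below, against 4.37% of all genes. The median difference was 0.21 against 0.07 over all genes, with 0.22 in the large and 0.18 in the small subunit. After scaling Rpl12 was the 1 gene called (0.31, limma adjusted p = 0.048), against 0.173% of all genes called higher and 0.26% lower. In 41 genes every Night WT library was then above every Day WT library, against 11% of all genes (1392 of 12689). In Rps16 every Night WT library was again below, against 11.9% of all genes. The median after scaling was 0.12 against 0.01.

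The count of 5 in WT was 0 without Day WT replicate 1, Day WT replicate 2 or any of the 3 Night WT libraries, 3 without Night DKO replicate 1 or 3, and 8 without Day DKO replicate 1. It was also 0 when the spread was estimated from the WT groups alone, whereas the median stayed between 0.19 and 0.24 in every leave-one-out fit. The share of all genes called in these fits was not counted.

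In DKO mice limma called 0 of 77 genes between night and day, as deposited and after scaling, against 0.181% of all genes called higher and 0.118% called lower as deposited. At an unadjusted p under 0.05, 14 genes were higher and 0 lower in both, against 10.3% and 4.79% of all genes as deposited and 7.71% and 7.74% after scaling, where limma called 0.213% of all genes higher and 0.331% lower. The median difference was 0.10 against 0.02 over all genes as deposited, and 0.07 against 0.00 after scaling. As deposited, the members' median fell to 0.04 without Day DKO replicate 1 and rose to 0.13 without Day DKO replicate 2. The highest differences were those of Rpl35a (0.30, adjusted p = 0.166), Rpl10a (0.30, adjusted p = 0.12) and Rpl36 (0.28, adjusted p = 0.212), all of the large subunit, and the lowest those of Rpl27a (-0.09), Rps12 (-0.07) and Rpl22 (-0.06). In 17 genes every Night DKO library was above every Day DKO library, against 12.9% of all genes, and in none below, against 6.44%. All 17 also had Night WT wholly above Day WT, against 4.96% of all genes with both, and after scaling 11 genes had both, against 2.1%. Among the 17 were Rpl10a, Rpl12, Rpl14, Rpl19, Rpl21, Rpl28, Rpl35a, Rpl36, Rplp1, Rps10, Rps20, Rps27a, Rps4x and Rps7.

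**Figure D3:**
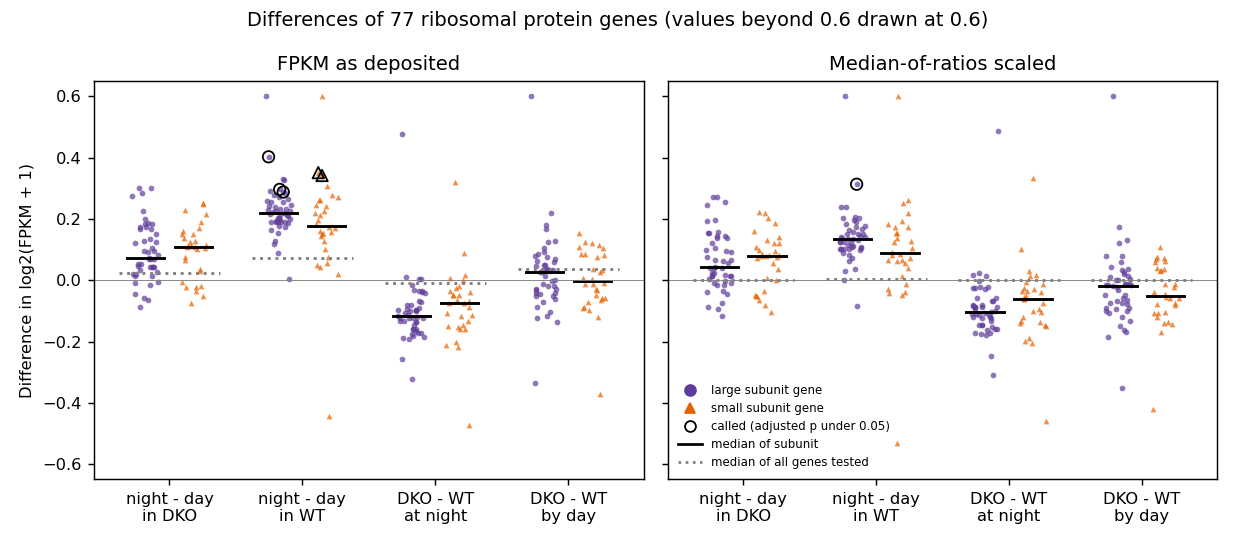
Difference in log2(FPKM + 1) of each ribosomal protein gene in 4 comparisons, as deposited (left) and after median-of-ratios scaling (right), with large subunit genes as circles and small subunit genes as triangles. Black bars are medians of the subunits, dotted lines medians of all genes tested, and outlined points are called (limma, adjusted p under 0.05); values beyond 0.6 are drawn at 0.6. Both subunits sit above the dotted line in the night comparisons and below it for DKO against WT at night.

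Between DKO and WT at night limma called 0 of 77 genes, as deposited and after scaling, where it called 0.0236% of all genes lower and 0.0% higher. At an unadjusted p under 0.05, 0 genes were higher and 13 lower as deposited, 10 of the large and 3 of the small subunit, against 3.78% and 5.4% of all genes, and after scaling 0 were higher and 15 lower, against 4.91% and 5.26%. The median difference was -0.11 against -0.01 over all genes as deposited, and -0.09 against 0.00 after scaling, and 9 of 77 genes were above 0, against 46.2% of all genes. In 28 genes every Night DKO library was below every Night WT library, against 9.48% of all genes, and in none above, against 5.73%. After scaling there were 34 such genes, against 9.72%. The median kept its sign in all leave-one-out fits, between -0.12 and -0.08.

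The lowest differences were those of Rps13 (-0.47, adjusted p = 0.533), Rpl32l (-0.32, adjusted p = 0.648) and Rpl12 (-0.26, adjusted p = 0.274), and the highest those of Rpl34 (0.48), Rps16 (0.32) and Rps29 (0.09). As described further on, Rps13 was far higher in Night WT replicate 1 than in any other library, and Rpl32l lay near the limit of what was kept. Fragments of Rpl34 can be counted for its processed copy. In Rpl12 the 3 Night DKO libraries, at 109 to 128 FPKM, lay below the 3 Night WT libraries, at 137 to 151 FPKM. Rps6, the substrate of S6 kinases downstream of mTORC1, was at 70.9, 60.3 and 72.5 FPKM in Night DKO and 79.4, 83.5 and 73.9 in Night WT, a difference of -0.22 (limma adjusted p = 0.491). Rpl5, which with Rpl11 binds MDM2 when ribosome assembly fails, was at 53.8 ± 1.26 FPKM in Night DKO and 60.8 ± 2.77 in Night WT (SD, n = 3), without overlap and without passing the test (adjusted p = 0.455).

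By day limma called 0 of 77 genes between DKO and WT, as deposited and after scaling, where it called 0.796% of all genes higher and 0.386% lower as deposited. At an unadjusted p under 0.05, 3 genes were higher and 0 lower as deposited, against 11.9% and 5.12% of all genes. The median difference was 0.01 against 0.04 as deposited and -0.03 against 0.00 after scaling. As deposited, the members' median changed sign without Day WT replicate 1, to -0.02, and rose to 0.07 without Day DKO replicate 1. Rpl22, Rpl27a and Rps13 were wholly higher in Day DKO than in Day WT, against 14.3% of all genes, and Rpl12 and Rps16 wholly lower, against 5.26%.

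Averaged over both times, limma called 0 of 77 genes between DKO and WT as deposited, against 1.0% of all genes called higher and 0.875% lower; 0 were higher and 5 lower at an unadjusted p under 0.05, against 9.68% and 6.52% of all genes. The median was -0.05 against 0.01 over all genes. After scaling Rps4x fell by 0.17 in DKO mice (standard error 0.039, limma adjusted p = 0.0432), the 1 member called, against 1.09% of all genes called higher and 1.42% called lower. At an unadjusted p under 0.05, 0 members were then higher and 16 lower, against 8.23% and 8.53% of all genes, and the median was -0.07 against 0.00. Rps4x stood at 116 ± 2.75 FPKM in Night DKO and 134 ± 4.94 in Night WT, and at 99.6 ± 5.61 in Day DKO and 106 ± 3.22 in Day WT, as deposited (SD, n = 3). Its highest value was in Night WT replicate 1, the library that differed in sex, and no scaled fit was run without that library.

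The test of whether the genotype difference itself depended on the time of day called 0 of 77 genes and 0.0% of all genes in either direction (limma interaction). At an unadjusted p under 0.05, 1 member was higher and 8 lower as deposited, against 1.79% and 6.87% of all genes, and 1 higher and 5 lower after scaling, against 3.6% and 3.84%. The median interaction was -0.11 against -0.05 over all genes as deposited, and -0.05 against 0.00 after scaling. Among the 8 were Rpl4, Rpl10, Rpl12, Rpl22, Rpl27a, Rplp0 and Rps6, and the higher one was Rps16, at 0.69 (adjusted p = 0.561). A larger night difference in WT than in DKO mice was thus not shown for any single member.

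**Figure D4:**
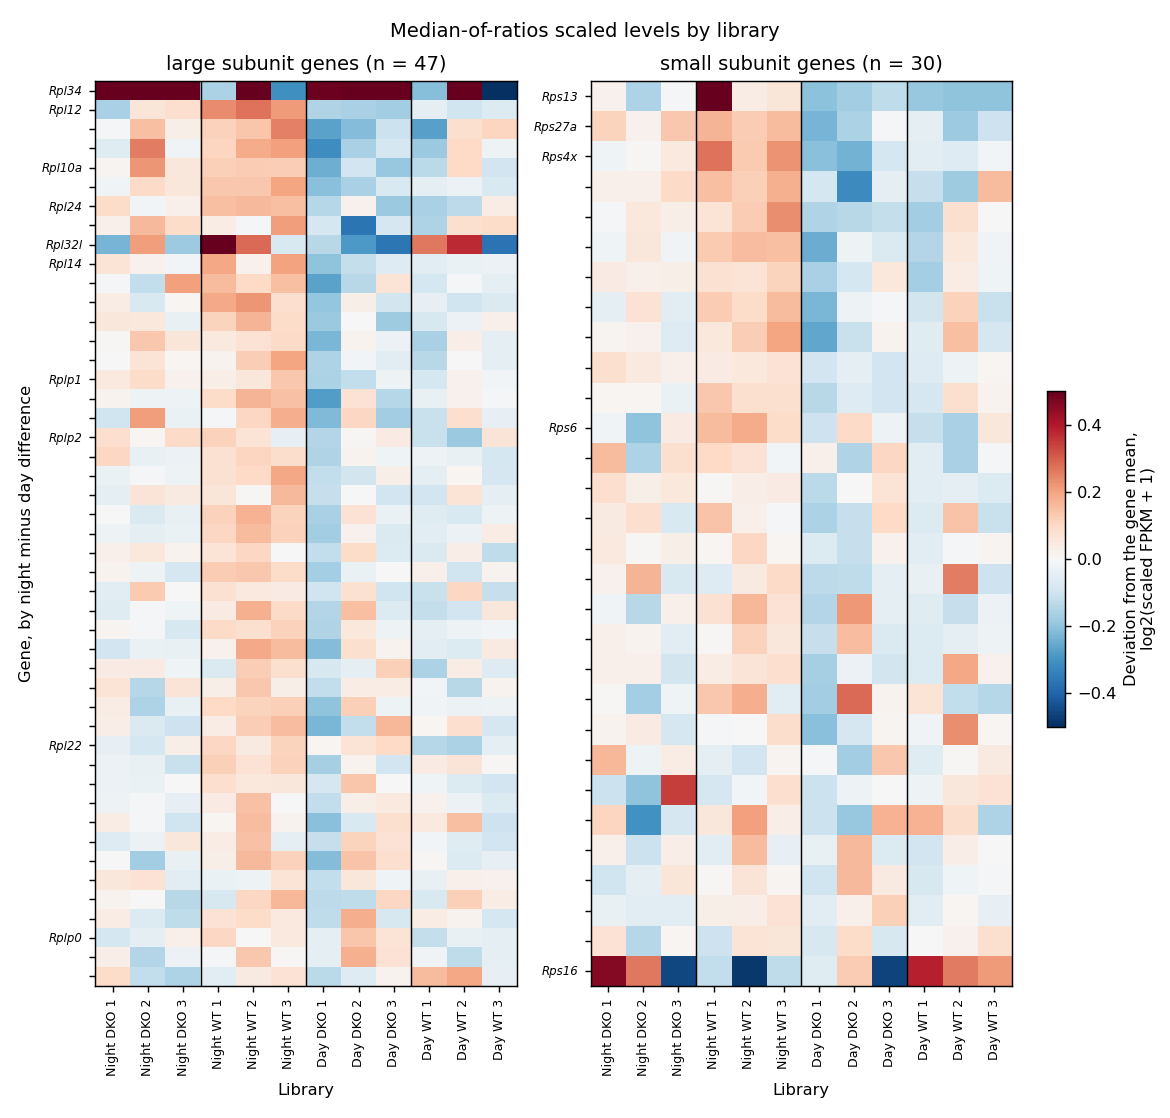
Deviation of each member from its own mean in log2(scaled FPKM + 1) after median-of-ratios scaling, for 47 large subunit genes (left) and 30 small subunit genes (right) ordered by the night minus day difference, with 1 column per library and names for the members described most closely. Red is above and blue below the gene's mean, drawn to a limit of 0.5; the Night WT columns are mostly red, Day DKO replicate 1 mostly blue, and Rpl34, Rpl32l, Rps13 and Rps16 break the pattern.

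Of the 3 proteins of the stalk that recruits elongation factors, Rplp1 passed the night test as deposited and Rplp0 and Rplp2 did not. The call of Rplp1 was made in 5 of 21 alternative settings and not after scaling (0.13, limma adjusted p = 0.1001). Rplp1 stood at 461 ± 9.89 FPKM in Night DKO and 471 ± 12.5 in Night WT, against 405 ± 21.8 in Day DKO and 413 ± 24.2 in Day WT (SD, n = 3), and was called between night and day (0.19, limma adjusted p = 0.0409). Rplp2, its partner, was at 176 ± 7.95 FPKM in Night DKO and 176 ± 13.0 in Night WT, against 161 ± 12.7 in Day DKO and 151 ± 14.5 in Day WT, a difference of 0.17 that did not pass (adjusted p = 0.0993). Rplp0, which anchors both, was at 93.7 ± 3.47 FPKM in Night DKO, 100.5 ± 3.30 in Night WT, 97.8 ± 7.85 in Day DKO and 86.8 ± 4.52 in Day WT. Its night difference was 0.21 in WT mice (adjusted p = 0.11) and -0.06 in DKO mice (adjusted p = 0.746).

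Within groups the members typically varied slightly more than other genes. The SD of log2(FPKM + 1) within groups, as deposited, had a median of 0.103 over the members and of 0.096 over all genes tested. Over the 3324 genes with a mean log2(FPKM + 1) of at least that of 10 FPKM, the median SD was 0.090. The SD within groups is also given for single members. This SD was above 0.2 in 4 members, Rpl34, Rps13, Rps16 and Rpl32l, where the next highest, Rps27, was at 0.18.

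Rpl34 on chromosome 3 has a near-identical processed copy on chromosome 6, Rpl34-ps1 (chr6:71124589-71125001), and fragments of 1 can be counted for the other. Rpl34 was at 99.1, 91.5 and 94.8 FPKM in Night DKO and 56.3, 113 and 49.5 in Night WT, and at 85.1, 99.5 and 92.3 in Day DKO and 49.8, 89.97 and 2.27 in Day WT. Rpl34-ps1 was at 45.8, 36.6 and 38.3 FPKM in Night DKO and 210.3, 40.9 and 219 in Night WT, and at 34.9, 30.97 and 40.4 in Day DKO and 189, 42.6 and 329 in Day WT. The libraries with low Rpl34 were those with high Rpl34-ps1, and all 4 were WT. Rpl34 made up 68.4% to 76.3% of the sum of both in the 6 DKO libraries, 73.4% in Night WT replicate 2 and 67.9% in Day WT replicate 2. It made up 21.1%, 18.4%, 20.8% and 0.685% in Night WT replicates 1 and 3 and Day WT replicates 1 and 3. The sum of both was also higher in those 4 libraries, at 239 to 332 FPKM, than in the other 8, at 120.1 to 154 FPKM. No comparison of Rpl34 passed the test, and what separates the 4 libraries from the others was not tested.

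Rps13, a small subunit protein, was at 369 FPKM in Night WT replicate 1 and at 134 to 176 FPKM in the other 11 libraries. The difference between Night WT and Day WT was 0.70 with this library (limma adjusted p = 0.0964) and 0.34 without it (adjusted p = 0.103). Rps16, a protein beside the decoding site, was at 40.5, 34.1 and 20.6 FPKM in Night DKO, 26.5, 21.04 and 25.7 in Night WT, 26.5, 31.2 and 20.2 in Day DKO and 35.01, 33.3 and 31.95 in Day WT. As deposited it was the 1 member whose correlation with the median of the others over the 12 libraries was below 0, at -0.28. After scaling it was at -0.27, and Rps29 was below 0 too, at -0.15. Rpl32l, at 0.164 to 1.19 FPKM, lay near the limit of what was kept, where the log2(FPKM + 1) scale shrinks differences.

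**Figure D5:**
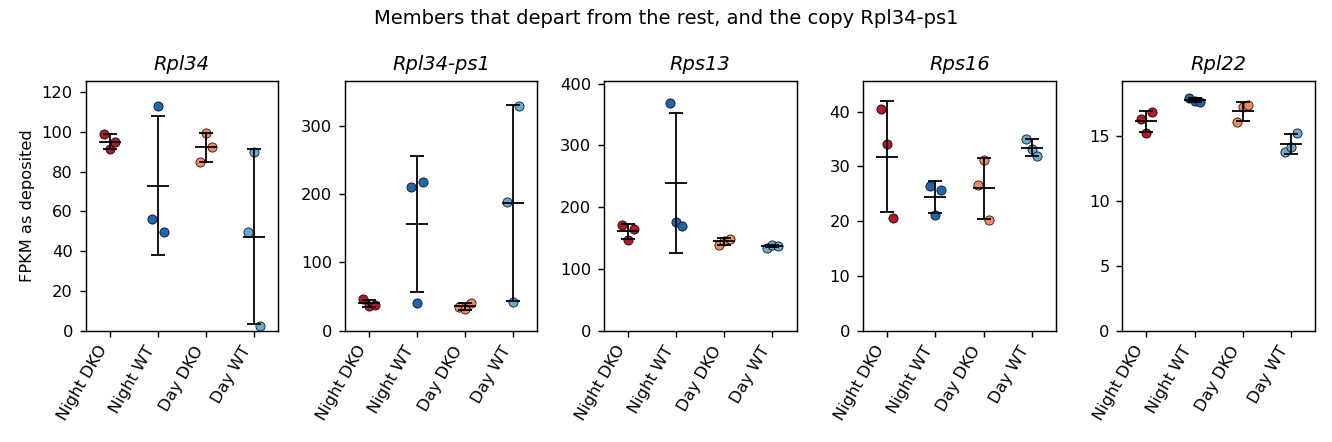
FPKM as deposited of Rpl34, its processed copy Rpl34-ps1, Rps13, Rps16 and Rpl22, with 1 point per library, the mean as a bar and the SD as whiskers (n = 3 per group). Rpl34 and Rpl34-ps1 split the WT libraries in opposite directions, and 1 Night WT library sets the mean of Rps13.

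Rpl22, a large subunit protein that cells can do without and that controls its own paralogue Rpl22l1, had genotype differences of opposite sign at night and by day. It was at 16.3, 15.2 and 16.9 FPKM in Night DKO and 17.9, 17.7 and 17.6 in Night WT, and at 16.1, 17.3 and 17.4 in Day DKO and 13.8, 14.1 and 15.3 in Day WT. DKO libraries lay wholly below WT libraries at night (-0.13, limma adjusted p = 0.516) and wholly above them by day (0.22, adjusted p = 0.0882), and the interaction of -0.35 did not pass the test (adjusted p = 0.435). Over all genes, 9.48% lay wholly below at night and 14.3% wholly above by day. Rpl22l1 was the more abundant of the pair, at 58.5 against 16.3 FPKM for Rpl22, and rose between night and day (0.29, adjusted p = 0.0166).

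Other paralogues were mostly minor. Rpl36al, an intronless relative of Rpl36a, stood at 104 FPKM against 177 for Rpl36a. Rpl7l1 stood at 8.47 FPKM against 162 for Rpl7. Rps27l, a relative of Rps27 that responds to p53, stood at 2.01 and Rps27rt at 28.8 FPKM against 920 for Rps27. Rpl37rt stood at 19.3 FPKM against 214 for Rpl37, and Rpl32l at 0.542 FPKM against 229.8 for Rpl32. Reads of retrocopies this close to their parent can be split by the counting, so these levels are uncertain.

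Other parts of the translation machinery were counted in the averaged night comparison, against the 5.19% of all genes called higher and median of 0.05. At an unadjusted p under 0.05, 21.7% of all genes were higher. Of 8 ribosomal proteins whose names fall outside the symbol pattern, Rpl22l1 and Rps3a1 (0.19, limma adjusted p = 0.031) rose as deposited, with a median of 0.14, and Rpl22l1 alone was called after scaling. Of 35 initiation factors 7 rose and none fell, with a median of 0.09: Eif3c, Eif3e, Eif3g and Eif3l of the scaffold that holds the small subunit, Eif2s2 and Eif2s3x of the complex that brings the initiator tRNA, and Eif6, which keeps the subunits apart. Eif2s3x lies on the X chromosome and has a Y-linked copy, and Night WT replicate 1 differed in sex from the other libraries. Eif3g was the 1 of them called after scaling (0.16, adjusted p = 0.035). Of 8 elongation factors limma called 0, with a median of 0.03 and 2 higher at an unadjusted p under 0.05. Of 13 genes of RNA polymerase I and its factors it called 0, with a median of 0.05 and 3 higher at an unadjusted p under 0.05. Neither list had a gene called after scaling.

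Of 14 other mRNAs known for a terminal oligopyrimidine tract, Eif3e rose, and the median was 0.12. Ncl, nucleolin, was the 1 called of 34 ribosome biogenesis factors (0.21, limma adjusted p = 0.017; median 0.07). Sesn1, a sensor that restrains mTORC1, was the 1 called of 27 genes of that pathway (0.23, adjusted p = 0.015; median 0.06). Sec61g, of the channel into the endoplasmic reticulum, was the 1 called of 15 factors that act on nascent chains (0.33, adjusted p = 0.03; median 0.09). Of these 4 calls, those of Ncl and Sesn1 held after scaling and those of Eif3e and Sec61g did not. None of these lists had a member that fell. For DKO against WT at night the medians of the 8 translation lists ran between -0.09 (initiation factors and other oligopyrimidine mRNAs) and 0.03 (nascent chain factors), where all genes had -0.01. Averaged over both times, limma called 1 of the 8 ribosomal proteins outside the symbol pattern lower in DKO mice after scaling, but not as deposited. After scaling it called 1.09% of all genes higher and 1.42% lower in that comparison.

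Genes of other large complexes gave a scale for these counts. Of 77 mitochondrial ribosomal proteins, Mrps28 (0.30) and Mrpl41 (0.20) rose and none fell, with a median of 0.08 as deposited and 0.02 after scaling. Of 37 proteasome subunits 12 rose and none fell as deposited and 6 after scaling, with medians of 0.16 and 0.10. Of 79 subunits of oxidative phosphorylation 9 rose and none fell as deposited and 3 after scaling, with medians of 0.14 and 0.08. The median of the cytosolic ribosomal proteins, 0.14 and 0.08, was thus near those of the proteasome and of oxidative phosphorylation, and the differences between these sets were not tested.

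Some markers of blood and of myelin differed between night and day. In the averaged night comparison limma called 5.19% of all genes higher as deposited and 1.63% after scaling. All 5 erythroid markers were called higher at night as deposited (limma, median 0.50) and 1, Hbb-bt, after scaling, and their summed level was 116 to 159 FPKM in Night DKO and 171 to 285 in Night WT, against 90.5 to 109.8 in Day DKO and 111 to 153 in Day WT. Of 5 oligodendrocyte markers Mog rose (0.33, limma adjusted p = 0.025; median 0.24), and their sum was 261 to 336 FPKM in Night DKO and 325 to 385 in Night WT, against 229 to 286 in Day DKO and 295 to 316 in Day WT. The 7 markers of choroid plexus epithelium summed to 1991 to 3140 FPKM in Night DKO and 1419 to 3279 in Night WT, against 77.1 to 1865 in Day DKO and 1172 to 2889 in Day WT. Their median night difference was 0.91 and none was called by limma. At an unadjusted p under 0.05, 4 were higher, against 21.7% of all genes. With the level of the choroid plexus markers as a covariate 10 members were called between night and day on average and 9 in WT mice. The share of all genes called with this covariate was not counted. No marker of these 3 lists was at 0 in a whole group. In DKO mice at night the erythroid and oligodendrocyte medians were -0.65 and -0.28 relative to WT mice. The share of these cells in the genotype difference was not tested, and the part of blood and myelin in the night difference was not tested.

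Markers of the hippocampus were present: the 5 of excitatory neurons summed to 541 to 574 FPKM in Night DKO and 509.5 to 570 in Night WT, against 554 to 640 in Day DKO and 519 to 572 in Day WT, with a median night difference of -0.03. The 5 hippocampal subfield markers had a median of -0.10, the 5 interneuron markers 0.06, the 5 astrocyte markers 0.00, the 5 microglia markers 0.03, the 5 mural markers 0.08 and the 4 oligodendrocyte precursor markers -0.12. Of 5 endothelial markers Slco1a4 rose (0.37) and Cldn5 fell (-0.49), and of 5 leptomeningeal markers Slc13a4 rose (0.51). Between genotypes averaged over time, limma called 3 of 5 mural, 3 of 5 leptomeningeal and 3 of 5 erythroid markers lower and 2 of 5 microglia markers higher in DKO mice, as deposited. Of all genes it called 1.0% higher and 0.875% lower in that comparison.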

How the data were processed

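RNA from 12 hippocampal samples in 4 groups of 3 was sequenced by the authors. Libraries were stranded and depleted of ribosomal RNA, per the labels' protocols. The authors deposited 1 table of FPKM values per library. That unit was read from the values: over 455 genes of low level, the smallest non-zero value correlated with transcript length in GENCODE at a Spearman's rho of -0.783. The build is GRCm38.p6, per the submitters' processing notes. No source used here names the aligner, quantifier or annotation. Depth is unknown, so no counting interval is given. Of the gene symbols, 27 had become spreadsheet dates and were recovered through gene IDs.

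The 12689 genes that reached 0.5 FPKM in 3 or more libraries entered limma 3.58.1 in R 4.3.3 on log2(FPKM + 1), a scale that understates the change of low genes. All 12 libraries were fitted together, with a mean for each of the 4 groups, a variance prior with an intensity trend, 7 comparisons and Benjamini-Hochberg adjustment over all genes, 2-sided at 0.05. It was tested on simulated data. Alternatives were median-of-ratios scaling, quantile normalization, rescaling to TPM, a pseudocount of 0.1, no filter, a filter of 1 FPKM in 6 libraries, removal of a trend with transcript length (12456 genes with a length), a replicate block, choroid plexus level as a covariate, only the groups compared, and each library left out. Figures were drawn with matplotlib 3.10.9.

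Named genes are members called in any comparison, the 3 highest and 3 lowest per comparison, the 5 highest and 5 lowest in level, the stalk genes, Rps6, Rpl34, members with paralogues and called members of other lists. Rpl5, the transcript lengths of Rps20 and Rps24, and the members that do not overlap or have p under 0.05 or a high spread were named after their values were seen. Members and lists were chosen with earlier results of these data known. No library was identical to another. Some members and 1 further gene are not reported by name here.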

Additional observations from a re-analysis of the deposited data

Results flagged for a closer look

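Rpl22 was flagged because its genotype difference ran in opposite directions by time. All 3 Night DKO libraries were below all 3 Night WT libraries, and all 3 Day DKO libraries were above all 3 Day WT libraries. The difference at night minus that by day was -0.352 in log2(FPKM + 1), and its own test did not pass (limma interaction, adjusted p = 0.435). After median-of-ratios scaling it was -0.30 (adjusted p = 0.605). Over all genes, 9.48% were wholly lower in DKO at night and 14.3% wholly higher in DKO by day, as deposited. How many genes of the whole table show both was not counted, so the pattern of Rpl22 is given as a description.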

How the results depend on the processing

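The night differences depended on scaling, and no called value changed sign in any alternative run. The averaged night comparison called 17 members as deposited, 7 after median-of-ratios scaling, 6 after quantile normalization, rescaling to TPM or removal of the length trend, and 10 without a filter or with the choroid plexus covariate. Leaving out single libraries gave 6 to 23. Its median of 0.14 became 0.051 after quantile normalization, 0.059 in TPM and 0.076 without the length trend. In WT mice the count of 5 became 1 after median-of-ratios scaling, 0 after quantile normalization, in TPM, without the length trend or with only the groups compared, and 9 with the covariate, with 0 to 8 when single libraries were left out. The WT median of 0.21 became 0.12 after median-of-ratios scaling, 0.063 after quantile normalization, 0.095 in TPM and 0.12 without the length trend. For DKO against WT averaged over time, the count of 0 became 1 after median-of-ratios scaling or in TPM, 4 after quantile normalization and 2 without the length trend. Without the length trend, limma called 1.21% of all genes higher and 1.52% lower in that comparison. It then called 1.67% higher and 1.79% lower in the averaged night comparison, and 0.142% each way at night in WT mice. The shares of all genes called after quantile normalization, in TPM, without a filter or with the covariate were not counted. Nor were those with only the groups compared, with the replicate block or with single libraries left out. The median interaction of -0.11 became -0.012 after quantile normalization and -0.031 in TPM. The cause of these shifts was not tested. Samples of the same replicate number deviated together in 1 pair of groups, Day DKO and Night WT, where all 3 correlations were above 0.1 (0.17 to 0.25). Over all pairs of groups 7 of 18 were above 0.1, with a range of -0.12 to 0.25, so the numbers were not taken to pair the samples. With the replicate block 1 member was called between night and day in DKO mice, where the fit without it called 0. Over the 7 counts of called members, the block changed no other count by more than 1.5 times. Unknown depth limits what can be said of low members such as Rpl32l.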
